A study of Mus musculus with 7 samples.

Results

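Prostaglandins are lipid messengers made from arachidonic acid, and 9 mouse genes that make them, receive them or break them down were followed through mammary tumours and control mammary glands. The genes are Pla2g4a, Ptgs1, Ptgs2, Ptges, Ptgis, Ptgds, Ptger2, Ptger4 and Hpgd, 9 of the 50600 genes in the deposited tables, and all 9 were found by symbol. They were chosen by name with earlier tumour and gland values of these same libraries known, so their levels are given as a description and carry no test. The libraries came from 4 tumours of ECD transgenic mice, a pair of adenosquamous carcinomas (1a and 1b), a carcinoma labelled spindle cell (3) and a papillary carcinoma (4). They were set against 3 mammary glands, numbers 1, 2 and 3, labelled only as controls. Total RNA came from whole glands or from the middle of each tumour. Ecd (ecdysoneless) encodes a cell cycle regulator. The species and promoter of the transgene, the genotype of the controls, the strain and the age are not given in the labels used here. Whether tumours 1a and 1b, which carry the same number, grew in 1 animal is not stated.

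Cells release arachidonic acid from membrane phospholipids with cytosolic phospholipase A2. The cyclooxygenases turn it into prostaglandin H2, which is then made into prostaglandin E2, prostaglandin D2 or prostacyclin by separate synthases. Prostaglandin E2 acts through 4 receptors called EP1 to EP4, and 15-hydroxyprostaglandin dehydrogenase ends its action by oxidising it. Cyclooxygenase 1 is made steadily in many tissues, whereas cyclooxygenase 2 is induced by cytokines and growth factors. In mammary tissue cyclooxygenase 2 has long been studied as a driver of tumour formation in mice.

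Summed counts were 7986946, 5420604, 6654569 and 28638206 in tumours 1a, 1b, 3 and 4, against 5148455, 35631305 and 34079731 in glands 1, 2 and 3. Genes of mitochondrial DNA took 18.3% to 32.6% of counts in tumours, against 48.4% to 64.8% in glands. Levels are CPM, counts scaled to a common library total after adjusting library sizes by the trimmed mean of M values (TMM). One count was worth 0.0315 to 0.354 CPM, with gland 1 the coarsest, so a count of 0 in gland 1 allows a level of up to 1.06 CPM (3 counts). Intervals and such limits cover counting error only. Bulk RNA cannot tell fewer cells of a type from less RNA per cell.

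The tissue markers set the tumours and glands apart in several ways that touch the results. The 9 fat cell markers summed to 23.6 to 150 CPM in tumours, against 3109 to 6520 CPM in glands, and all 9 were lower in each tumour than in any gland. Skeletal muscle markers summed to 1.19 to 236 CPM in tumours, against 14600, 21.5 and 28040 CPM in glands 1, 2 and 3, so muscle transcripts marked 2 of the 3 glands. The 9 basal and squamous markers summed to 1986 and 1076 CPM in the adenosquamous tumours, 325 CPM in the spindle cell tumour and 40.6 CPM in the papillary tumour, against 31.9 to 59.4 CPM in glands, with Lor, a late marker of keratinization, at 0 counts in every library. The 7 luminal markers, all 7 of them above every gland in the papillary tumour, summed there to 41900 CPM, of which the milk protein gene Csn2 gave 39600 CPM, against 420 to 6418 CPM in glands. The tumour labelled spindle cell held the epithelial markers Krt8 at 286.5 CPM and Epcam at 214 CPM, against at most 59.5 and 120 CPM in any gland. Of the other luminal markers, Krt18 and Cdh1 were also above every gland there and Elf5 lay among the glands. Krt19 (2.86 CPM, against 21.2 to 75.3 CPM) and Csn2 (0.296 CPM, against 89.6 to 5941 CPM) were below every gland. Endothelial, smooth muscle, mast cell and nerve markers summed to 40.2 to 233, 60.2 to 458.5, 15.4 to 64.4 and 5.62 to 121 CPM in tumours, against 235 to 368, 421 to 897, 54.6 to 75.3 and 34.4 to 64.6 CPM in glands.

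The stretches of DNA around the starts of 4 of the genes are shown, the cyclooxygenases Ptgs1 and Ptgs2, the synthase gene Ptges and the breakdown gene Hpgd. Counts of these genes are set against each other within each library. The receptor genes Ptger4 and Ptger2 are compared in that way too, but their windows are not shown. RefSeq (GRCm38.p6) gave a window for 8 of the 9 genes, from 250 bases before to 30 bases after the annotated start. The windows are chr2:36230176-36230455 (plus strand) for Ptgs1, chr1:150099781-150100060 (plus) for Ptgs2, chr2:30903268-30903547 (minus) for Ptges and chr8:56294302-56294581 (plus) for Hpgd. Capitals mark matches to 5 of the 7 motifs searched on both strands, and the window of Ptgs1 held none.
Ptgs1: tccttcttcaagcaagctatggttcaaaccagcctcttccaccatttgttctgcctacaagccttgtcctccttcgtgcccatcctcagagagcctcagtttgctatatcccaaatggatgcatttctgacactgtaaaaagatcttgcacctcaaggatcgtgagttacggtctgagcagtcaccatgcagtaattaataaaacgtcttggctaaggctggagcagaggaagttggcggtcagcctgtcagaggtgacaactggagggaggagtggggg
Ptgs2: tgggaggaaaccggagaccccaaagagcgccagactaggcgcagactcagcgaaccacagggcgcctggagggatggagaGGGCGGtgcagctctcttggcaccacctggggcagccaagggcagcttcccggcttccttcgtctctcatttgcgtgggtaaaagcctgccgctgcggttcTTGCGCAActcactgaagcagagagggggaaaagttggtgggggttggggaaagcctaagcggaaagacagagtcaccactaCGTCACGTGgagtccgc
Ptges: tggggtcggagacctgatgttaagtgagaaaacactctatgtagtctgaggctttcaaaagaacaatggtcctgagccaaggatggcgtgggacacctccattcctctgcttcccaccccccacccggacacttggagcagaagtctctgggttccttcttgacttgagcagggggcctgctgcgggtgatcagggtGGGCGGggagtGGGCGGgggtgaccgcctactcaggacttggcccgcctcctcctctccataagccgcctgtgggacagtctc
Hpgd: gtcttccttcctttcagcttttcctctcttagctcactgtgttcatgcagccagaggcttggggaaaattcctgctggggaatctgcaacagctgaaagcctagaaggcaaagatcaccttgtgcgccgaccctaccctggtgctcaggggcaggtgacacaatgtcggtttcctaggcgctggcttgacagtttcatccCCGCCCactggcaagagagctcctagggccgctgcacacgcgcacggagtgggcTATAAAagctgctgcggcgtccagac

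The motifs searched were TGACG (half-site of the cAMP response element), CACGTG (E-box), TTGCNNAA (C/EBP), TGANTCA (AP-1), TATAAA (the TATA motif), GGGCGG (GC box) and the NF-kappaB motif. The Ptgs2 window held 4 matches of different kinds. A GC box began 170 bases before the start and a match to the C/EBP motif, TTGCGCAA, began 69 bases before it. The half-site of the cAMP response element, read as CGTCA at base 14 counted from the start, overlapped an E-box at base 17. Among 32851 RefSeq windows of the same length, 19.9% held the half-site, 6.79% the E-box, 10.4% the C/EBP motif and 34.7% the GC box. The Ptges window held GC boxes 53 and 42 bases before the start, which lies inside the span that GENCODE gives the gene. The Hpgd window held a GC box, read as CCGCCC, 50 bases before the RefSeq start and TATAAA at base 5. TATAAA was found in 13.1% of windows. GENCODE starts Hpgd at 56294585, beyond the last base of the window at 56294581, so both motifs lie before that start. AP-1 and NF-kappaB motifs, in 7.46% and 7.94% of all windows, matched in the window of Ptgds, not shown here, and in none of the 4 printed.

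Among the genes of substrate release and the cyclooxygenase step, Pla2g4a and Ptgs2 were highest in the adenosquamous tumours and Ptgs1 in the papillary tumour. Pla2g4a encodes cytosolic phospholipase A2 alpha, which frees arachidonic acid (ENSMUSG00000056220, chromosome 1, 149829618 to 149961290, GRCm38). Pla2g4a stood at 18.4 and 26.7 CPM in adenosquamous tumours 1a and 1b, 6.70 CPM in the spindle cell tumour and 1.29 CPM in the papillary tumour, against 8.14, 10.8 and 5.07 CPM in glands 1, 2 and 3. Both adenosquamous tumours were above every gland and every other tumour, the spindle cell tumour lay among the glands, and the papillary tumour was below all 3. The lower adenosquamous level was 1.71 times that of the highest gland and 2.74 times that of the higher of the other tumours. The papillary level was 0.161 times the gland mean of 8.0 ± 2.86 CPM (SD, n = 3). The fitted log2 difference from the glands was 1.42 (SE 0.42) for the adenosquamous pair and 0.72 (SE 0.88) for all 4 tumours.

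Ptgs1 encodes cyclooxygenase 1, the steadily made form of the enzyme (ENSMUSG00000047250, chromosome 2, 36230426 to 36252272). Ptgs1 had 7.49 and 11.02 CPM in tumours 1a and 1b, 3.45 CPM in the spindle cell tumour and 17.0 CPM in the papillary tumour, against 4.60, 6.02 and 5.17 CPM in glands 1, 2 and 3. The glands were close together, both adenosquamous tumours and the papillary tumour were above them, and the spindle cell tumour was below them. The papillary level was 2.82 times that of the highest gland. The log2 difference was 0.74 (SE 0.38) for the adenosquamous pair and 0.88 (SE 0.53) for all tumours.

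Ptgs2, which encodes the inducible cyclooxygenase 2 (ENSMUSG00000032487, chromosome 1, 150100031 to 150108227), was abundant in the adenosquamous tumours and near the detection limit elsewhere. Its counts were 697 and 192 in tumours 1a and 1b, 6 in spindle cell tumour 3 and 8 in papillary tumour 4, against 0, 22 and 1 in glands 1, 2 and 3. These correspond to 59.3, 26.1, 0.591 and 0.279 CPM in tumours 1a, 1b, 3 and 4, against 0, 0.694 and 0.0474 CPM in the glands. The lower adenosquamous tumour was 37.7 times the highest gland and 44.2 times the higher of the other tumours, while the spindle cell and papillary tumours lay inside the gland range. Pooled over libraries, 889 adenosquamous and 23 gland counts gave a ratio of CPM of 113 (95% counting interval 74.6 to 179). The fitted log2 difference of the adenosquamous pair was 6.86 (SE 1.02), with 9.58 when gland 2, which held 22 of the 23 gland counts, was left out. High in only a pair of libraries, Ptgs2 did not pass the filter on low counts in the fit of all 7, which therefore gives no log2 difference for it.

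**Figure D1:**
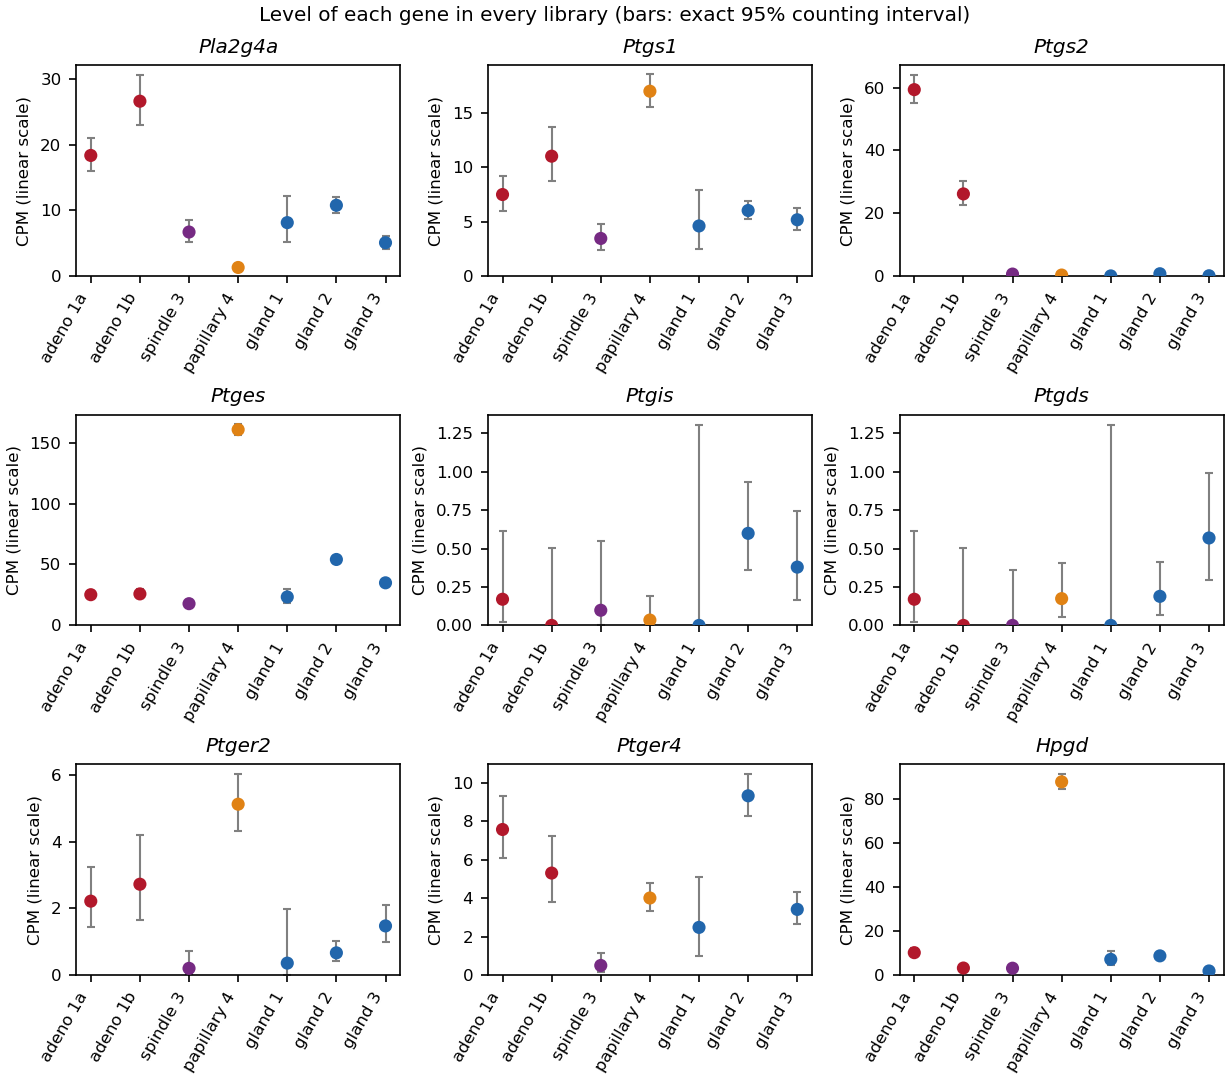
CPM (TMM-scaled, linear axes) of each of the 9 genes in tumours 1a and 1b (adenosquamous), 3 (spindle cell) and 4 (papillary) and in glands 1 to 3, as points with exact 95% counting intervals. Ptgs2 stood at 59.3 and 26.1 CPM in the adenosquamous tumours and at most 0.694 CPM elsewhere, while Ptges (161 CPM) and Hpgd (87.9 CPM) peaked in the papillary tumour.

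Pla2g4a and Ptgs2 are neighbours on chromosome 1, with 138740 bases between them, and were the pair of genes in which both adenosquamous tumours exceeded both other tumours more than 2-fold (2 of 9 genes, against 9.19% of the 14149 genes tested). Ptgs2 did not pass the filter on low counts and so is not among those 14149 genes. Ptgs2os, a gene on the opposite strand whose start lies 67 bases before Ptgs2, had 12, 0, 0 and 1 counts in tumours 1a, 1b, 3 and 4, against 0, 2 and 0 in glands 1, 2 and 3. It was thus near 0 in tumour 1b, where Ptgs2 had 192 counts.

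The balance between the cyclooxygenases was compared within each library, where scaling plays no part. Ptgs2 made up 88.8% and 70.3% of the summed counts of Ptgs2 and Ptgs1 in tumours 1a and 1b (exact 95% intervals 86.4% to 90.9% and 64.5% to 75.7%). Its share was 14.6% (5.57% to 29.2%) in spindle cell tumour 3 and 1.61% (0.699% to 3.15%) in papillary tumour 4, against 0% (0% to 24.7%), 10.3% (6.59% to 15.2%) and 0.909% (0.0230% to 4.96%) in glands 1, 2 and 3. Ptgs2 was the more counted of the pair in the adenosquamous tumours alone among these 7 libraries. Per kilobase of exon the ratio of Ptgs2 to Ptgs1 was 6.72 and 2.01 in tumours 1a and 1b.

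Of the synthase genes Ptges, Ptgis and Ptgds, Ptges had the most counts in every library. It encodes microsomal prostaglandin E synthase 1, the inducible enzyme that makes prostaglandin E2 (ENSMUSG00000050737, chromosome 2, 30889471 to 30929863). Ptges had 25.2 and 25.9 CPM in tumours 1a and 1b, 17.8 CPM in the spindle cell tumour and 160.6 CPM in the papillary tumour, against 23.3, 54.1 and 34.9 CPM in glands 1, 2 and 3. The papillary tumour was 2.97 times the next highest library, gland 2, while the adenosquamous tumours lay at the low end of the glands and the spindle cell tumour below them. The log2 difference was -0.62 (SE 0.38) for the adenosquamous pair. For all 4 tumours it was 0.61 (SE 0.82), and -0.77 without the papillary tumour, so the sign of that difference rests on 1 library. Where Ptgs2 exceeded all glands in both adenosquamous tumours, Ptges lay within their range.

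Ptgis encodes prostacyclin synthase, a vessel wall enzyme (ENSMUSG00000017969, chromosome 2, 167191805 to 167240604), and was scarcely counted. It had 2, 0, 1 and 1 counts in tumours 1a, 1b, 3 and 4, against 0, 19 and 8 counts in glands 1, 2 and 3. The 0 in tumour 1b allows up to 0.408 CPM, and the glands with counts stood at 0.599 and 0.379 CPM. Ptgis shares exon sequence with 1110018N20Rik on the opposite strand, which had 0 counts in each tumour, against 6, 64 and 12 counts in the glands. The libraries do not mark strand, so reads of these overlapping genes cannot be told apart.

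Ptgds encodes the lipocalin-type prostaglandin D synthase (ENSMUSG00000015090, chromosome 2, 25466709 to 25470046). Its counts were 2, 0, 0 and 5 in tumours 1a, 1b, 3 and 4, against 0, 6 and 12 in glands 1, 2 and 3. Ptgis and Ptgds failed the count filter in both fits, so neither has a fitted difference. For Ptgis the counting interval of the papillary tumour (0.000882 to 0.194 CPM) lay below that of gland 2 (0.361 to 0.935 CPM), and for Ptgds both groups held libraries at 0.

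The receptors Ptger2 and Ptger4, which raise cyclic AMP when prostaglandin E2 binds, were at low levels. Ptger2 encodes the EP2 receptor (ENSMUSG00000037759, chromosome 14, 44988195 to 45003820). Ptger2 had 2.21 and 2.72 CPM in tumours 1a and 1b, 0.197 CPM in the spindle cell tumour and 5.12 CPM in the papillary tumour, against 0.354, 0.662 and 1.47 CPM in glands 1, 2 and 3. The papillary and both adenosquamous tumours exceeded all glands, and the spindle cell tumour, with 2 counts, was below them. The log2 difference was 1.39 (SE 0.71) for the adenosquamous pair and 1.53 (SE 0.96) for all tumours. Gland 1 rests on 1 count, and the antisense gene Gm17173, whose exons overlap Ptger2, had 2, 3, 2 and 49 counts in the tumours, against 0, 8 and 12 in the glands.

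Ptger4 encodes the EP4 receptor (ENSMUSG00000039942, chromosome 15, 5206661 to 5244187). Ptger4 had 7.58 and 5.31 CPM in tumours 1a and 1b, 0.493 CPM in the spindle cell tumour and 4.01 CPM in the papillary tumour, against 2.48, 9.33 and 3.41 CPM in glands 1, 2 and 3. The spindle cell tumour was lowest, with 5 counts, and the other tumours lay inside the gland range, which gland 2 set. The lymphocyte markers summed to 73.5, 5.58, 3.65 and 2.23 CPM in tumours 1a, 1b, 3 and 4, against 7.07, 131 and 3.94 CPM in glands 1, 2 and 3, so gland 2 and tumour 1a were the highest libraries for Ptger4 and for these markers alike, and their part in the Ptger4 levels was not tested. The log2 difference for all tumours, -0.26 (SE 0.83), became 0.53 without gland 2. That of the adenosquamous pair, 0.25 (SE 0.64), lay between -0.02 without tumour 1a and 1.00 without gland 2. Exons of Ttc33 on the opposite strand overlap Ptger4, and Ttc33 had 114 to 336 counts in tumours, against 118 to 584 in glands.

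Counts of Ptger4 exceeded those of Ptger2 in every library but the papillary tumour. The ratio was 3.42 and 1.95 in tumours 1a and 1b, 2.5 in spindle cell tumour 3 and 0.782 in papillary tumour 4, against 7.0, 14.1 and 2.32 in glands 1, 2 and 3. The papillary ratio had a 95% counting interval of 0.608 to 1.005, which reaches equality.

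Hpgd, the breakdown gene, was by far the highest in the papillary tumour. It encodes 15-hydroxyprostaglandin dehydrogenase, which oxidises prostaglandin E2 (ENSMUSG00000031613, chromosome 8, 56294585 to 56321043). Hpgd had 10.1 and 3.13 CPM in tumours 1a and 1b, 3.05 CPM in the spindle cell tumour and 87.9 CPM in the papillary tumour, against 7.07, 8.67 and 1.80 CPM in glands 1, 2 and 3. The papillary tumour was 10.1 times the highest gland and 8.68 times the next highest library, tumour 1a. Tumour 1a was above every gland, but its counting interval (8.39 to 12.1 CPM) overlapped that of gland 2 (7.67 to 9.76 CPM). Tumours 1b and 3 lay among the glands. The log2 difference of all tumours was 2.18 (SE 1.33) but -0.15 without the papillary tumour. That of the adenosquamous pair was 0.14 (SE 0.82), with -0.95 without tumour 1a and 0.79 without tumour 1b. Gm45540, an unclassified transcript inside the Hpgd span on the same strand, had 6, 2, 3 and 308 counts in tumours 1a, 1b, 3 and 4, against 0, 49 and 9 in glands 1, 2 and 3, and was likewise highest in the papillary tumour.

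Synthesis and breakdown were set against each other within each library as the share of Ptgs2 in the summed counts of Ptgs2 and Hpgd. The share was 85.4% and 89.3% in adenosquamous tumours 1a and 1b (exact 95% intervals 82.8% to 87.8% and 84.4% to 93.1%). It was 16.2% (6.19% to 32.0%) in spindle cell tumour 3 and 0.316% (0.137% to 0.622%) in papillary tumour 4, against 0% (0% to 16.8%), 7.41% (4.70% to 11%) and 2.56% (0.0649% to 13.5%) in glands 1, 2 and 3. The adenosquamous tumours held the highest shares. These shares are not adjusted for gene length. Per kilobase of exon the ratio of Ptgs2 to Hpgd was 2.15 and 3.07 in tumours 1a and 1b. The papillary interval lay below that of gland 2 and overlapped those of glands 1 and 3. Counts of Ptges exceeded those of Hpgd in all 7 libraries, by 2.49, 8.26, 5.84 and 1.83 times in tumours 1a, 1b, 3 and 4, against 3.30, 6.24 and 19.4 times in the glands. The papillary ratio was the lowest of the 7. Per kilobase of exon the ratio of Ptges to Hpgd was 1.065, 3.54, 2.5 and 0.783 in tumours 1a, 1b, 3 and 4. In glands 1, 2 and 3 that ratio was 1.41, 2.67 and 8.30. By this measure Hpgd was above Ptges in the papillary tumour alone.

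**Figure D2:**
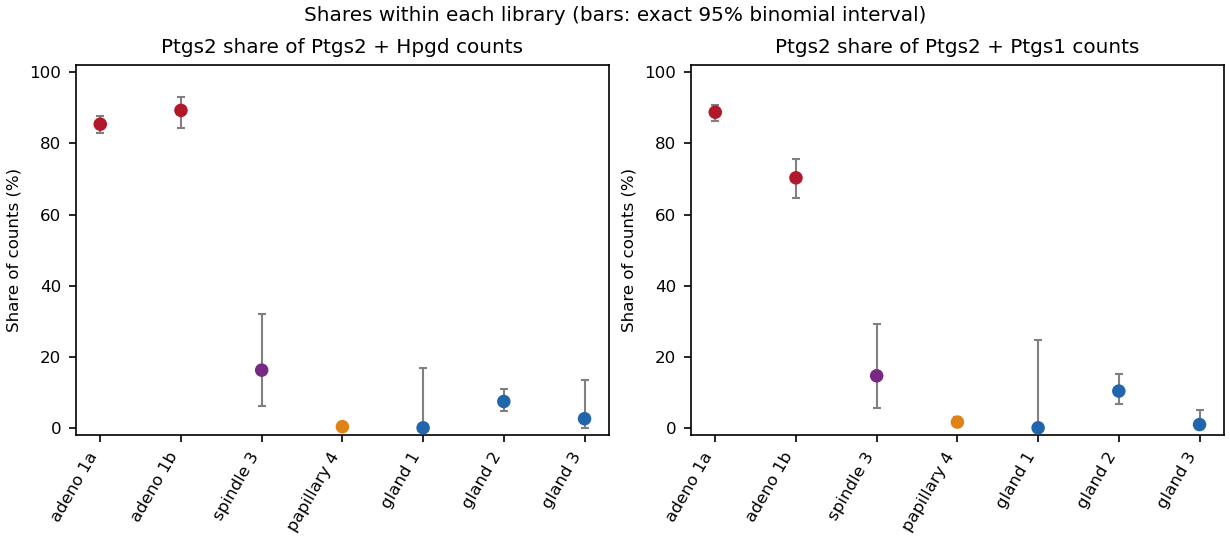
Share of Ptgs2 (percent, with exact 95% binomial intervals) in the summed counts of Ptgs2 and Hpgd on the left and of Ptgs2 and Ptgs1 on the right, in 4 tumours and 3 glands. Both adenosquamous tumours were at 70.3% or more in both panels, and no other library exceeded 16.2%.

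Levels of different genes were compared per kilobase of annotated exon. In tumour 1a Ptgs2 led, with 40.6% of the summed CPM per kilobase of the 9 genes, ahead of Ptges at 20.1% and Hpgd at 18.9%. In tumour 1b Ptges (29.3%) and Ptgs2 (25.4%) were close and Pla2g4a followed at 18.6%. In the spindle cell tumour Ptges held 53.0%, and in the papillary tumour Hpgd held 52.5% and Ptges 41.1%. Ptges led all 3 glands, with 45.5%, 56.9% and 66.4%. The sum over the 9 genes was 31.9, 22.5, 8.57 and 99.4 CPM per kilobase in tumours 1a, 1b, 3 and 4, against 13.0, 24.2 and 13.4 in glands 1, 2 and 3, so the papillary tumour had the highest sum and the spindle cell tumour the lowest.

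Counted over the 9 genes, 6 passed the filter in the fit of 7 libraries and 7 in the fit of 5. The percentages cover only genes that passed, which leaves out Ptgis and Ptgds in both fits and Ptgs2 in the fit of 7. In none of the 9 genes were all 4 tumours on 1 side of all glands, which held for 16.3% (above) and 13.2% (below) of the 14149 genes tested. Both adenosquamous tumours were above all glands for Pla2g4a, Ptgs1, Ptgs2 and Ptger2 (4 genes) and below them for 0 genes, where 28.2% and 23.3% of the 14708 genes tested were. The papillary tumour was more than 2-fold above the highest gland for Ptgs1, Ptges, Ptger2 and Hpgd (4 genes, against 14.3% of genes) and more than 2-fold below the lowest for Pla2g4a (1 gene, against 16.2%). It was more than 2-fold above each of the other tumours for Ptges and Hpgd (6.68% of genes) and more than 2-fold below each for Pla2g4a and Ptgs2 (10.1%). For Ptgs2 this rests on 8 counts in the papillary and 6 in the spindle cell tumour, whose counting intervals overlap. The spindle cell tumour was more than 2-fold above the highest gland for 0 genes (10.5%) and more than 2-fold below the lowest for Ptger4 (12.2%). It was more than 2-fold below each of the other tumours for Ptgs1, Ptger2 and Ptger4 (5.56%). Nothing is read from these counts, since the genes were chosen with such values known.

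The genes closest in pattern to 3 of the 9 were found by Pearson's r of log2 CPM over the 7 libraries, among 7887 genes with a mean log2 CPM of at least 3. All libraries share 1 scaling, and r is given as a description. For Ptgs2 these were Tmsb10, an actin-binding peptide gene (r = 0.987), Rarg, a retinoic acid receptor gene (0.985), and Cap1, which encodes an actin regulator (0.977). Tmsb10 stood at 208 and 179 CPM in tumours 1a and 1b, 31.2 CPM in the spindle cell tumour and 34.4 CPM in the papillary tumour, against 15.2 to 41.3 CPM in glands. For Ptges they were Rpia, a pentose phosphate pathway gene (r = 0.972), Eps15, an endocytosis gene (0.971), and Cers2, a ceramide synthase gene (0.970). For Hpgd they were Cytip (r = 0.968), Eif3l, a translation initiation factor gene (0.944), and Commd7 (0.938). Cytip stood at 205 CPM in the papillary tumour and 3.94 to 22.4 CPM in the other tumours, against 5.83 to 31.1 CPM in glands. Genes with r of at least 0.9 numbered 103 for Ptgs2, 31 for Ptges and 18 for Hpgd.

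The rest of the pathway was read from 4 lists of genes, tested across all genes by edgeR's quasi-likelihood F test with Benjamini-Hochberg adjustment. The lists, like the 9 genes, were chosen with earlier results of these data known. Among all 14149 genes, 3.9% were higher and 4.57% lower in the 4 tumours than in the glands (8.47% in all). Of 101 genes on the lists, 71 were tested, 0 were higher and 7 lower, with 11 higher and 9 lower at an unadjusted p under 0.05. DESeq2 called 17 of them and limma-voom 8. Their median log2 difference was 0.38, against 0.12 for all genes. In the adenosquamous pair, where 5.02% of 14708 genes were higher and 5.36% lower (10.4% in all), 78 list genes were tested, 10 were higher and 8 lower, and their median was 0.33, against -0.04 for all genes. Of the 78, 7 passed the filter on low counts in this fit alone, 6 of them (Il1a, Il1b, Cxcl1, Cxcl5, Il11 and Fpr2) through the adenosquamous libraries in which they were high, and 5 of the 10 higher genes are among these. The adjusted p-values of these 5 are therefore given as a description. Over the 71 genes tested in both fits, 5 were higher and 8 lower, with a median of 0.25.

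Among the other prostanoid genes, covering synthases, reductases, transporters and receptors, 0 of 18 tested rose and 2 fell in the tumours (3 and 3 at an unadjusted p under 0.05). Ptger3 encodes the EP3 receptor, which lowers cyclic AMP and restrains lipolysis in fat cells (chromosome 3, 157566892 to 157645888). Ptger3 had 2.38, 0.544, 0.493 and 0.523 CPM in tumours 1a, 1b, 3 and 4, against 167, 203 and 134 CPM in glands 1, 2 and 3. Every tumour was far below every gland, and the fall was -7.40 on the log2 scale (SE 0.70, edgeR adjusted p = 0.00805). The call held without any 1 library in turn, with adjusted p from 0.00228 to 0.0371, but not with gland 2 as the only control. Ptgr2, a reductase that acts on 15-keto-prostaglandin E2, the product of Hpgd's enzyme (chromosome 12, 84285232 to 84315832), had 14.6, 13.1, 23.9 and 18.1 CPM in tumours 1a, 1b, 3 and 4, against 65.1, 61.1 and 53.1 CPM in glands 1, 2 and 3. The fall was -1.78 (SE 0.27, edgeR adjusted p = 0.0136), and the call was lost without gland 1 or gland 3. All 9 fat cell markers were likewise lower in all 4 tumours than in any gland, with 0, 2, 4 and 0 of them at 0 counts in tumours 1a, 1b, 3 and 4, and their part in these falls was not tested.

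In the adenosquamous pair 2 of the 18 prostanoid genes rose and 2 fell (6 and 2 unadjusted). Ptger3 (log2 -6.85, SE 0.76, edgeR adjusted p = 0.0183) and Ptgr2 (-2.18, SE 0.29, adjusted p = 0.0194) fell in this comparison too, which shares its glands with the first. Here the call of Ptger3 was lost without gland 3 or tumour 1b (adjusted p up to 0.0567) and that of Ptgr2 without gland 3, tumour 1a or tumour 1b (up to 0.110). Ptgfrn encodes a membrane partner of the prostaglandin F receptor and of tetraspanins. It stood at 145 and 105 CPM in tumours 1a and 1b, against 29.0, 28.5 and 25.6 CPM in glands (log2 2.11, SE 0.29, adjusted p = 0.0198). Akr1b8, an aldo-keto reductase gene, stood at 19.8 and 16.2 CPM, against 4.95, 4.35 and 3.84 CPM in glands (log2 1.99, SE 0.34, adjusted p = 0.0267). For both genes the groups did not overlap, and both calls were lost without tumour 1a, tumour 1b or gland 3. Of the other receptors, Ptger1 (EP1), Ptgdr, Ptgdr2 and Tbxa2r had 21 or fewer counts in every library and failed the filter.

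Of 20 tested genes that supply or consume arachidonate and its phospholipids, 0 rose and 2 fell in the tumours (1 and 2 unadjusted). Pla2g16, an adipose phospholipase gene, stood at 14.2, 6.802, 8.67 and 11.2 CPM in tumours 1a, 1b, 3 and 4, against 26.5, 51.3 and 80.9 CPM in glands 1, 2 and 3 (log2 -2.37, SE 0.43, edgeR adjusted p = 0.0214). Mgll, which encodes monoacylglycerol lipase, a source of arachidonate from 2-arachidonoylglycerol, stood at 25.5, 22.2, 28.8 and 51.6 CPM, against 62.3, 221 and 246 CPM in glands (log2 -2.46, SE 0.52, adjusted p = 0.0333). Tumours and glands did not overlap for either gene, and both calls were lost without gland 2 or gland 3, among other libraries. All 9 fat cell markers were lower in the tumours here too, and their part was not tested.

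In the adenosquamous pair 1 of the 20 rose and 2 fell (3 and 4 unadjusted). Pla2g7 encodes the platelet-activating factor acetylhydrolase, an enzyme made by macrophages. Pla2g7 stood at 69.5 and 206 CPM in tumours 1a and 1b, 8.28 CPM in the spindle cell tumour and 16.4 CPM in the papillary tumour, against 7.43, 11.9 and 11.8 CPM in glands (log2 3.65 in the pair, SE 0.51, edgeR adjusted p = 0.0204). The 6 macrophage markers summed to 515 and 2115 CPM in tumours 1a and 1b, 83.8 CPM in the spindle cell tumour and 226 CPM in the papillary tumour, against 149 to 265 CPM in glands. In both adenosquamous tumours 4 of the 6 exceeded every gland, with Lyz2 alone at 292 and 1793 CPM, while Cd163 was below every gland, at 3.92 and 0.544 CPM, against 21.3 to 54.5 CPM. The part of these markers in the level of Pla2g7, whose call was lost without gland 1, gland 3 or tumour 1b, was not tested. Mgll fell (log2 -2.94, SE 0.64, adjusted p = 0.0436). Elovl5, an elongase gene of polyunsaturated fatty acid synthesis, fell to 37.0 and 25.7 CPM in the pair, against 90.6, 92.7 and 68.1 CPM in glands (log2 -1.49, SE 0.34, adjusted p = 0.0467). The call of Elovl5 was lost without any 1 of the 5 libraries, under both other scalings and with mitochondrial genes left out, and that of Mgll in the pair without any 1 library but gland 1.

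Lipoxygenase and leukotriene genes lead arachidonate away from the cyclooxygenases. Of 12 tested, 0 rose and 2 fell in the tumours (4 and 2 unadjusted), although their median log2 difference was 1.3, against 0.12 for all genes. Dpep1, a dipeptidase that trims leukotriene D4, fell to 3.06, 0.408, 0.394 and 0.592 CPM in tumours 1a, 1b, 3 and 4, against 18.0, 40.9 and 33.9 CPM in glands (log2 -4.78, SE 0.82, edgeR adjusted p = 0.0178). Ephx2, the soluble epoxide hydrolase, fell to 6.21, 1.36, 0.887 and 8.64 CPM, against 37.1, 51.8 and 66.9 CPM in glands (log2 -3.58, SE 0.78, adjusted p = 0.0351). In the adenosquamous pair 1 of 14 rose and 2 fell (4 and 2 unadjusted), with Dpep1 at -4.15 (SE 0.85, adjusted p = 0.0384) and Ephx2 at -3.80 (SE 0.70, adjusted p = 0.0301). Fpr2, a receptor for lipoxin A4 and formyl peptides, rose on few counts, 23 in the pair and 1 in the glands (ratio of pooled CPM 67.0, 95% counting interval 10.9 to 2760, adjusted p = 0.0477). Fpr2 passed the filter on low counts only through the adenosquamous libraries in which it was high, so its adjusted p-value is a description. Over the 12 genes tested in both fits, 0 rose and 2 fell in the pair. The call of Dpep1 was lost in the all-tumour fit without gland 3 or tumour 1b, that of Ephx2 without any 1 library but the papillary tumour, those of both in the pair without any 1 library but gland 2, and that of Fpr2 without gland 1 and in limma-voom. Without any other library of the pair comparison Fpr2 failed the filter.

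**Figure D3:**
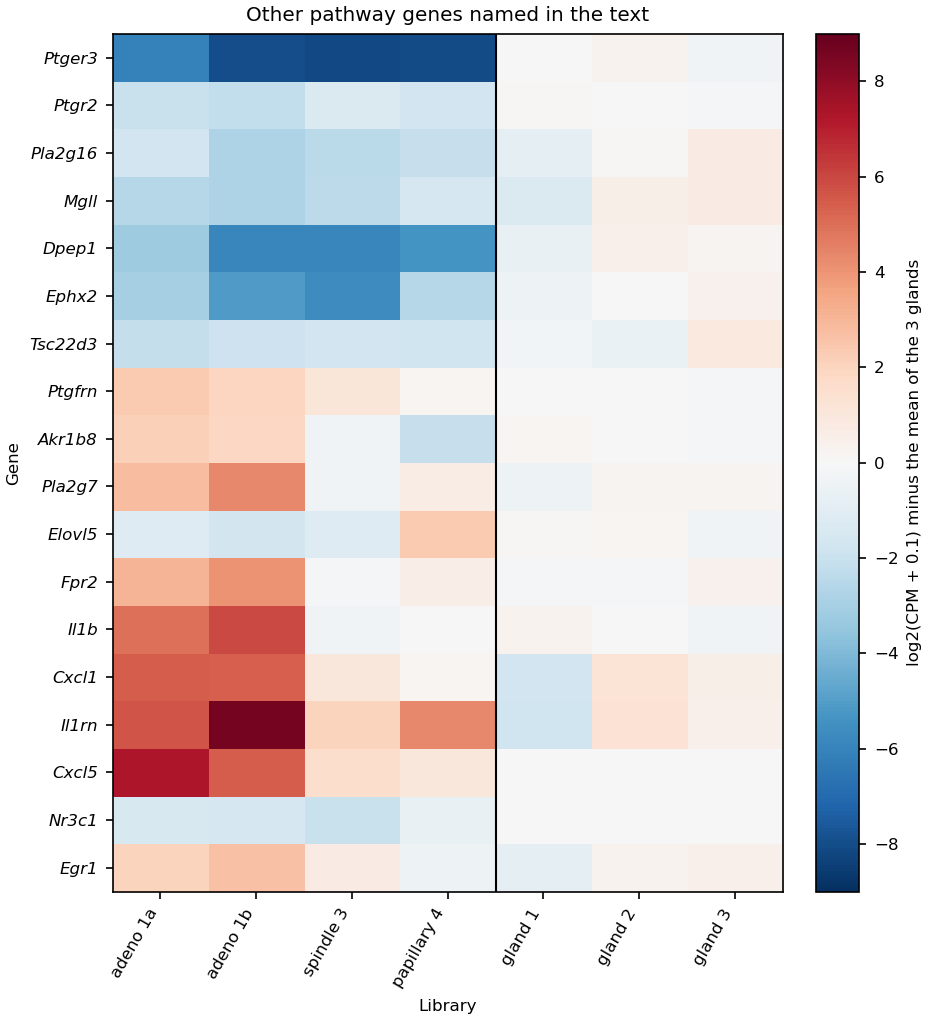
Other pathway genes named here: log2(CPM + 0.1) minus the mean of the 3 glands, in 4 tumours (left of the line) and 3 glands, red above and blue below the glands. Ptger3 was lowest, from -8.13 to -6.06 in the tumours, and Il1b, Cxcl1, Il1rn and Cxcl5 were at 4.96 or more in both adenosquamous tumours.

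The last list joined known inducers of Ptgs2 with genes of the prostaglandin E2 and cyclic AMP response and with regulators of Ptgs2 mRNA. In all tumours 0 of 21 tested rose and 1 fell (3 and 2 unadjusted), namely Tsc22d3, the glucocorticoid-induced leucine zipper gene (log2 -2.02, SE 0.37, edgeR adjusted p = 0.0223), which stood at 20.5, 24.8, 26.7 and 25.6 CPM in tumours 1a, 1b, 3 and 4, against 75.7, 59.5 and 162 CPM in glands. This call was lost without 5 of the 7 libraries in turn (all but gland 2 and the papillary tumour) and with gland 2 as the only control. In the adenosquamous pair 6 of 26 rose and 2 fell (9 and 3 unadjusted), with a median of 0.68, against -0.04 for all genes. The count and the median are partly set by the filter, since Il1a, Il1b, Cxcl1, Cxcl5 and Il11 entered through the adenosquamous libraries alone. Over the other 21 genes 2 rose and 2 fell, with a median of 0.47. The 6 that rose were the interleukin 1 family genes Il1b, Il1a and Il1rn, the chemokine genes Cxcl1 and Cxcl5, and Egr1.

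Il1b, a cytokine gene and classical inducer of cyclooxygenase 2 (chromosome 2, 129364570 to 129371139), stood at 11.4 and 22.9 CPM in tumours 1a and 1b, 0.197 CPM in the spindle cell tumour and 0.279 CPM in the papillary tumour, against 0.354, 0.284 and 0.190 CPM in glands (log2 5.98 in the pair, SE 0.57, edgeR adjusted p = 0.0182). Cxcl1, which draws neutrophils, stood at 14.6, 13.7, 0.591 and 0.279 CPM in tumours 1a, 1b, 3 and 4, against 0, 0.694 and 0.379 CPM in glands (log2 4.87, SE 0.69, adjusted p = 0.0204). As with Ptgs2, the spindle cell and papillary tumours were at gland level for both genes. Il1rn, the interleukin 1 receptor antagonist gene, stood at 17.7 and 137 CPM in the pair and 1.28 and 6.83 CPM in the spindle cell and papillary tumours, against 0, 0.757 and 0.379 CPM in glands (log2 7.18, SE 1.09, adjusted p = 0.0220). Cxcl5 had 184 and 32 counts in the pair and 0 in each gland, a level at least 210-fold higher against 3 counts over the 3 glands (adjusted p = 0.0291). Il1b, Cxcl1 and Cxcl5, and Il1a below, passed the filter on low counts only through the adenosquamous libraries in which they were high. Their adjusted p-values are given as a description. Il1b was higher in tumour 1b than in 1a, and Ptgs2 was higher in 1a than in 1b.

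Egr1, an immediate early gene, rose to 28.2 and 44.6 CPM in tumours 1a and 1b, against 3.89, 8.92 and 9.86 CPM in glands (log2 2.17, SE 0.43, edgeR adjusted p = 0.0365). Il1a, which lay beyond the limit of 6 named genes and was named after its values were seen, rose by 4.58 (SE 1.02, adjusted p = 0.0451). Nr3c1, the glucocorticoid receptor gene, fell to 58.5 and 54.2 CPM, against 158.5, 156 and 152 CPM in glands (log2 -1.53, SE 0.29, adjusted p = 0.0319), and its target Tsc22d3 fell by 2.19 (SE 0.51, adjusted p = 0.0496). The call of Il1b was lost without gland 3 or tumour 1b. Those of Cxcl1, Cxcl5, Il1rn, Il1a, Nr3c1 and Tsc22d3 were lost without 3 or 4 of the 5 libraries in turn, and that of Egr1 without any 1 of them. Those of Il1rn and Il1a were also lost in limma-voom (adjusted p = 0.0850 and 0.0901), and that of Tsc22d3 under median-ratio scaling and with mitochondrial genes left out.

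Marker sums of several cell types moved with Ptgs2 and the cytokine genes. The 6 neutrophil markers summed to 44.6 and 74.3 CPM in tumours 1a and 1b, 1.77 CPM in the spindle cell tumour and 2.06 CPM in the papillary tumour, against 1.06, 2.87 and 1.28 CPM in glands, with Ly6g, a defining marker, at 0 counts in every library and the other 5 above every gland in both adenosquamous tumours. The basal and squamous sum (7 of 9 markers above every gland in the pair, Krt10 below) and the macrophage sum, given above, were also highest in the adenosquamous pair. The 8 fibroblast markers summed to 5943 and 1609 CPM there, against 443 to 1333 CPM in glands. Their sum was 300.2 CPM in the spindle cell tumour and 269 CPM in the papillary tumour. Of these markers 3, all collagen genes, exceeded every gland in both tumours of the pair. Lum and Dpt were below every gland in both, and Pdgfra, Dcn and Pi16 were below every gland in tumour 1b. In tumour 1a Pdgfra was above every gland, at 166 CPM against 41.4 to 120.7 CPM, and Dcn and Pi16 lay among the glands. Within the pair, the basal and squamous sum and the fibroblast sum were higher in tumour 1a, as Ptgs2 was. The neutrophil and macrophage sums were higher in tumour 1b, as Il1b was. Single markers did not all follow their sums. Of the basal and squamous markers Sfn, Trp63, Ivl and Krt10 were higher in 1b. The neutrophil markers Cxcr2 and Retnlg and the macrophage markers Csf1r and Cd163 were higher in 1a. Lyz2 alone gave 1793 of the 2115 CPM of the macrophage sum in 1b. With 2 libraries this is a description, and the part of these cell types in the level of Ptgs2 was not tested. The luminal sum was highest in the papillary tumour, where Ptges and Hpgd were highest, and its part in those levels was not tested.

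**Figure D4:**
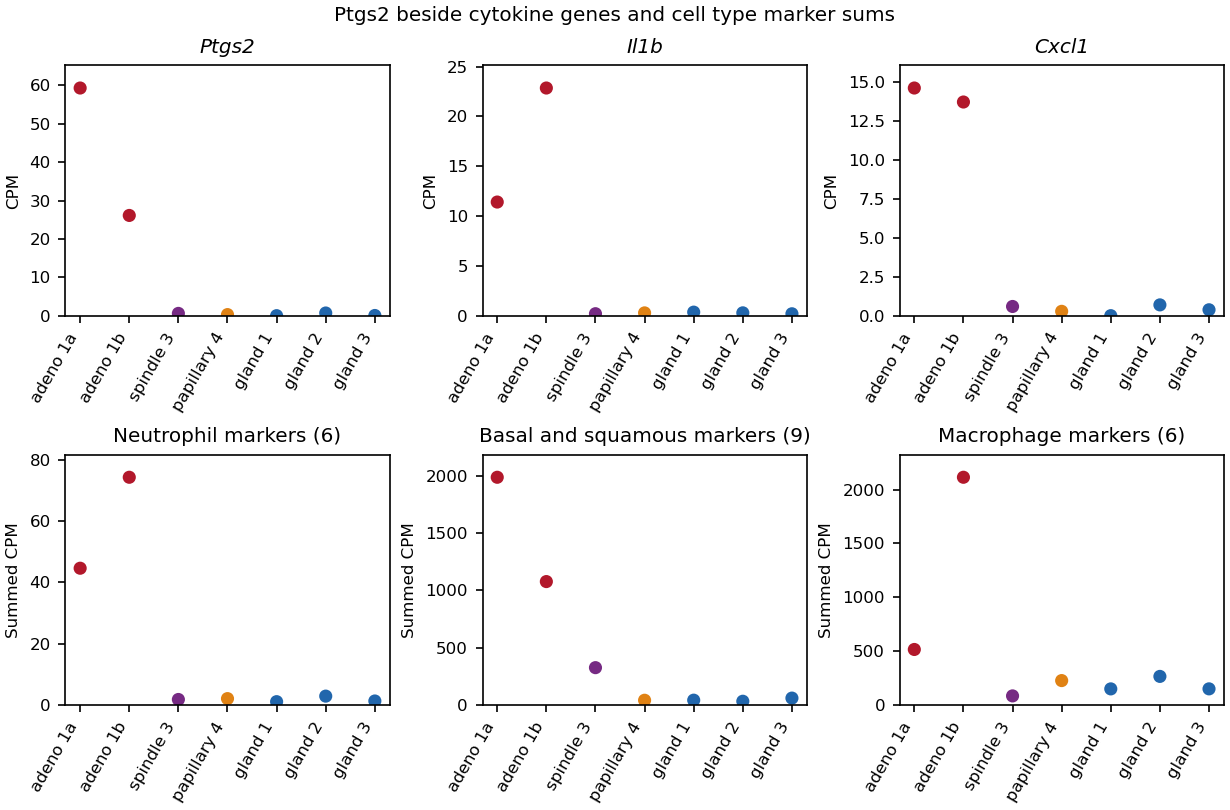
CPM of Ptgs2, Il1b and Cxcl1 (top) and summed CPM of 6 neutrophil, 9 basal and squamous and 6 macrophage markers (bottom) in 4 tumours and 3 glands, on linear axes from 0. All 6 panels were highest in the adenosquamous tumours, with Ptgs2 higher in tumour 1a (59.3 CPM) and Il1b in tumour 1b (22.9 CPM).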

How the data were processed

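Trizol-extracted total RNA was cleaned of DNA and made into TruSeq v2 libraries, a kit that does not mark strand, and read as pairs of 75 bases, per the labels' protocols. The tools and build named in the submitters' processing notes are STAR 2.5, RSEM 1.3, limma and GRCm38. Annotation release, strand setting and filters: not given in the sources used here. In what the authors deposited, the value column is headed TPM, but unlike TPM its sums differ between libraries, so its values were taken for expected counts (2.34% to 6.14% of values not whole) and rounded. No library repeated another (chi-square per degree of freedom 85.0 to 374.9 within groups). Positions are from GENCODE M21 (GRCm38). It listed 50376 of the 50600 gene identifiers.

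Genes were tested with edgeR 4.0.16 (R 4.3.3, quasi-likelihood F test, TMM factors 0.551 to 1.605, filterByExpr with a minimum count of 10 and total of 15, two-sided, Benjamini-Hochberg adjusted p under 0.05) in 4 tumours against 3 glands and in 2 adenosquamous tumours against 3 glands. SE is the log2 difference divided by the square root of F. Log2 CPM used a prior count of 2. The labels call the samples independent but give no animals, so p-values measure the spread between these samples. The biological coefficient of variation was 0.6 and 0.504. Checks on simulated data were run. The 9 genes and all lists, 4 of pathway genes and 12 of cell markers, were chosen with earlier results of these data known. From each pathway list, every gene that passed was named, up to the 6 smallest p per list and comparison. Of 21 lipoxygenase genes listed, 20 were matched. Alternatives were DESeq2 1.42.0, limma-voom 3.58.1, other scalings and filters, leaving out each library, gland 2 as the only control, and a replicate block on the label number (added after seeing the data).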

Additional observations from a re-analysis of the deposited data

Results flagged for a closer look

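Among the 4 tumours, 3 of 28 genes checked had 1 library far from the rest, by a ratio of its gap to the nearest tumour to the whole range above Dixon's 95% critical value (log2 CPM). Chance flags about 1 in 20 such groups when all 4 samples are of 1 kind. These tumours are of different types and the genes were chosen with results of these data known. The flags are therefore a description and carry no test. The papillary tumour stood apart for Ptges (ratio 0.832) and for Elovl5 (0.869), on the high side for both. Adenosquamous tumour 1a stood apart for Ptger3 (0.943), where it was higher than the other tumours, at 2.38 CPM against 0.493 to 0.544 CPM.

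For 3 of the prostaglandin genes, tumour types lay on opposite sides of all 3 glands. Pla2g4a was above every gland in both adenosquamous tumours and below every gland in the papillary tumour, a gap of 3.98 in log2 CPM. Ptgs1 and Ptger2 were above every gland in both adenosquamous tumours and below every gland in the spindle cell tumour, with gaps of 1.37 and 3.01. The papillary and spindle cell types have 1 library each, and these differences between tumour types were not tested.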

How the results depend on the processing

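Depth limits Ptgis, Ptgds, Ptgs2 outside the adenosquamous tumours and Ptger2 in gland 1, and 2 tumour types have 1 library each. Genes passing in the 4 tumours numbered 1199, 3403 by DESeq2, 0 with gland 2 as the only control (1655 at an unadjusted p under 0.05), and 97 (without gland 3) to 1351 (without the papillary tumour) when 1 library was left out. Pathway genes passing there numbered 7, 17 by DESeq2, 0 with gland 2 as the only control (9 unadjusted), and 1 (without gland 3) to 11 (without the papillary tumour) with 1 library left out. In the adenosquamous pair 1526 genes passed, 3562 by DESeq2, 2521 with no filter on low counts, and 0 to 1498 with 1 library left out, where the 0 came without gland 3 (3472 unadjusted) and without tumour 1b (2994 unadjusted). Pathway genes passing in the pair numbered 18, 32 by DESeq2, and 0 to 14 with 1 library left out, with 0 without gland 3 (32 unadjusted) and without tumour 1b (19 unadjusted). With 1 adenosquamous library left, it is assumed to vary as the glands do. Other scalings, limma-voom and the stricter filter kept these 4 counts within 1.5 times. Signs reversed for Akr1b8 in all tumours by limma-voom (-0.08) and for Elovl5 in all tumours by limma-voom (-0.34) and without the papillary tumour (-1.41, adjusted p 0.0289), with -1.41 to 1.01 over the libraries left out in turn. Ptges was at -0.77 and Hpgd at -0.15 without the papillary tumour, Hpgd at -0.32 as a difference of medians, and Ptgs2 in the pair at 8.35 with a prior count of 0.5. The cause of these shifts was not tested. The number 1 names gland 1 and tumours 1a and 1b, and 3 names gland 3 and tumour 3, and a replicate block on this number, added after seeing the data, gave 0 genes (3021 unadjusted) and 0 pathway genes (22 unadjusted) in all tumours, 701 and 5 in the pair, and Elovl5 at -1.26 in all tumours. Deviations from group means of same-numbered tumours and glands had r of -0.15, 0.01 and -0.04 over 14149 genes. The tumours also differ in type and the glands in muscle markers, so these values cannot tell whether same-numbered samples share an animal or batch.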

Other observations

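Alox12e and Alox15, lipoxygenase genes that did not pass the test, had their highest values in the spindle cell and papillary tumours. They were picked after their values were seen, and Alox5, Alox5ap, Lta4h, Dpep2 and Cysltr1, which did not pass either, were highest in adenosquamous tumour 1b. Alox12e, an epidermal 12-lipoxygenase gene, stood at 1.70, 2.59, 58.1 and 126 CPM in tumours 1a, 1b, 3 and 4, against 0.354, 0.378 and 2.13 CPM in glands 1, 2 and 3 (log2 5.48, SE 1.79, edgeR adjusted p = 0.0971). Alox15, which encodes a 12/15-lipoxygenase, stood at 1.28, 2.31, 42.4 and 31.0 CPM, against 0.707, 0.0630 and 1.19 CPM in glands (log2 4.93, SE 1.63, adjusted p = 0.0998). These are the tumours in which Ptgs2 had 6 and 8 counts.

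Enzymes that build polyunsaturated fatty acids were highest in the papillary tumour. Fads1, the delta-5 desaturase gene, stood at 421 CPM there and 26.6 to 47.6 CPM in the other tumours, against 37.5 to 65.7 CPM in glands. Fads2, the delta-6 desaturase gene, stood at 178 CPM in the papillary tumour, 74.8 CPM in the spindle cell tumour and 9.70 and 15.1 CPM in the adenosquamous tumours, against 11.7 to 19.99 CPM in glands. Elovl5 stood at 416 CPM in the papillary tumour. Neither desaturase gene passed in all tumours (log2 1.33 and 2.15, edgeR adjusted p = 0.414 and 0.198).

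Anxa1 encodes annexin A1, a glucocorticoid-induced inhibitor of phospholipase A2. It stood at 106, 249, 401 and 38.9 CPM in tumours 1a, 1b, 3 and 4, against 49.2, 80.4 and 69.8 CPM in glands, and was highest in the spindle cell tumour (log2 1.58, SE 0.74, adjusted p = 0.202). Slco2a1, the prostaglandin uptake transporter gene, stood at 42.4, 65.0, 4.73 and 22.9 CPM, against 9.20, 9.14 and 26.1 CPM in glands, and did not pass in the adenosquamous pair (log2 1.78, SE 0.53, adjusted p = 0.0861).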
